A study of Mus musculus with 10 samples.

Results

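Ketone bodies are small molecules that carry energy between tissues, and 3 genes of their synthesis and use, Bdh1, Oxct1 and Acat1, are described here across 10 libraries of a mouse bile duct cell line. The genes were taken by symbol from a table of 18407 genes, and they were chosen with the matrix comparison known, so their levels and differences between the matrices are a description with no test. The cells were the NMC line, normal mouse cholangiocytes, the epithelium that lines bile ducts. They grew as 3D double spheroids for 6 days in a laminin-rich gel, laminin and collagen I at 3:1 by volume (5 libraries), or in collagen I at 1 mg/mL (5 libraries). All 10 libraries came from 1 untreated cell line kept in medium with low serum, so no second line or animal stands behind the replicates. Poly(A) mRNA was sequenced, and total counts ran from 4424725 to 7468219 in laminin and from 4913441 to 8129979 in collagen.

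Liver mitochondria make acetoacetate from acetyl-CoA, and Bdh1 reduces it to beta-hydroxybutyrate, the main ketone body in blood. Other tissues run the chain the other way: Bdh1 oxidises beta-hydroxybutyrate, Oxct1 moves coenzyme A from succinyl-CoA onto acetoacetate, and Acat1 splits the acetoacetyl-CoA that results into acetyl-CoA. Hepatocytes are known for making ketone bodies and for lacking Oxct1, while most other cell types carry it. Acat1 also catalyses the last step of isoleucine breakdown, and it runs in the direction of synthesis in ketogenic liver.

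The line carried Oxct1 and Acat1 at levels above those of most genes, and Bdh1 was close to absent in both matrices. CPM denotes counts scaled to a common library size with TMM factors. With CPM divided by the length of the longest annotated transcript, Oxct1 averaged 41.3 CPM per kb and Acat1 42.6 CPM per kb over the 10 libraries. Oxct1 stood above 81.2% of the 10789 genes tested on that scale, and Acat1 above 81.8%. Bdh1 averaged 0.0495 CPM per kb.

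In GRCm38 coordinates, Oxct1 lies on chromosome 15 from 4026383 to 4155344 on the plus strand, Bdh1 on chromosome 16 from 31422280 to 31458901 on the plus strand, and Acat1 on chromosome 9 from 53580522 to 53610382 on the minus strand. Their longest annotated transcripts have 17 exons and 3527 nt for Oxct1, 8 exons and 3162 nt for Bdh1, and 12 exons and 3405 nt for Acat1. Exons of Oxct1 overlap BC037032, and exons of Bdh1 overlap Gm15743, on the opposite strand. Whether reads were counted by strand is not given in the sources used here, so reads from these partners cannot be told apart from reads of Oxct1 and Bdh1. Acat1 has no such partner in the annotation.

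The sequence just before the start sites is shown for Oxct1, which was high, and for Bdh1, which was near 0, to set the 2 side by side. RefSeq (GRCm38.p6) gave 1 start for Oxct1 and 2 for Bdh1, and Acat1 was not matched. The windows are chr15:4026178-4026382 for Oxct1, chr16:31422047-31422279 for the first Bdh1 start and chr16:31428503-31428747 for the second, all on the plus strand, printed 5′ to 3′ up to the first annotated exon base. Capitals mark CpG dinucleotides.
Oxct1: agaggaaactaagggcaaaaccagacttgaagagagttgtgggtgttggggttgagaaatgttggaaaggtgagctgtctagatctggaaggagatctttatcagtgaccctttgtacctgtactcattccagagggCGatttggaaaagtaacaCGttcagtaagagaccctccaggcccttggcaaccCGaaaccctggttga
Bdh1, first start: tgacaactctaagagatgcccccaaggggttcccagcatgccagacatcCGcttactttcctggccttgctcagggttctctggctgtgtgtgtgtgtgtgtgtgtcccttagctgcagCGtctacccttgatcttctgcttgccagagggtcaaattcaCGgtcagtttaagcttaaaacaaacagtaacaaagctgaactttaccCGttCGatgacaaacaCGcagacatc
Bdh1, second start: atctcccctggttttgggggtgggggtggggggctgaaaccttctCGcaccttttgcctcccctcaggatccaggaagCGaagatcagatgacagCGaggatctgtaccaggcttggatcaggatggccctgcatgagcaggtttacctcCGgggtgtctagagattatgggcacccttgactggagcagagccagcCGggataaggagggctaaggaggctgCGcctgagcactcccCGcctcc

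The CpG content before the starts did not set Oxct1 and Bdh1 apart. Over the 250 bases before each RefSeq start, the observed over expected CpG ratio was 0.364 for Oxct1, and 0.460 and 0.394 for the first and second starts of Bdh1, against a median of 0.374 over 32851 such windows. All 3 windows lay near the middle of that distribution, above 49.1%, 56.7% and 51.7% of windows in the same order. On either strand, 8 motifs were searched in the 250 bases. The nuclear receptor core AGGTCA was in 14.0% of all windows, the direct repeat of that core bound by PPARs in 0.0335%, the ERR site TCAAGGTCA, which contains the core, in 0.387% and the HNF4 site CAAAGTCCA in 0.384%. The GC box GGGCGG was in 32.7% of windows, the CCAAT box in 33.8%, the palindromic NRF1 site in 3.74% and the cAMP response element TGACGTCA in 1.55%. None of the 8 strings occurred in the 3 windows, which says only that these letters are not in these bases.

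Bdh1 gave 5 counts in all in laminin, of 30123844, and 5 in collagen, of 31896275. By library, the laminin counts were 0, 0, 3, 2 and 0 in replicates 1 to 5, and the collagen counts were 1, 0, 1, 1 and 2. No library passed 3 counts, up to which a library with no count could still lie, and which correspond to 0.402 to 0.678 CPM in laminin and 0.369 to 0.611 CPM in collagen. The summed counts gave 0.166 CPM in laminin (exact Poisson 95% interval 0.0539 to 0.387) and 0.157 CPM in collagen (0.0509 to 0.366), intervals that cover counting error only. Bdh1 therefore did not enter the test across genes, and no fold is given.

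Oxct1 was at 148, 162, 167, 129 and 145 CPM in laminin replicates 1 to 5, and at 156, 159, 141, 132 and 117 CPM in collagen replicates 1 to 5. The groups overlapped over most of their range, with the lowest library in collagen and the highest in laminin. Oxct1 averaged 150 ± 15.0 CPM in laminin and 141 ± 17.1 CPM in collagen (SD, n = 5 each), a log2 difference of 0.09 (SE 0.11), or 1.06-fold. The difference was smaller than the SD within either group.

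Acat1 was at 175, 146, 149, 129 and 162 CPM in laminin replicates 1 to 5, and at 131, 136, 126, 161 and 134 CPM in collagen replicates 1 to 5. Laminin replicate 1 was the highest library and collagen replicate 3 the lowest, and the groups overlapped. The means were 152 ± 17.2 CPM in laminin and 137 ± 13.6 CPM in collagen (SD, n = 5 each), a log2 difference of 0.15 (SE 0.11), or 1.11-fold.

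**Figure D1:**
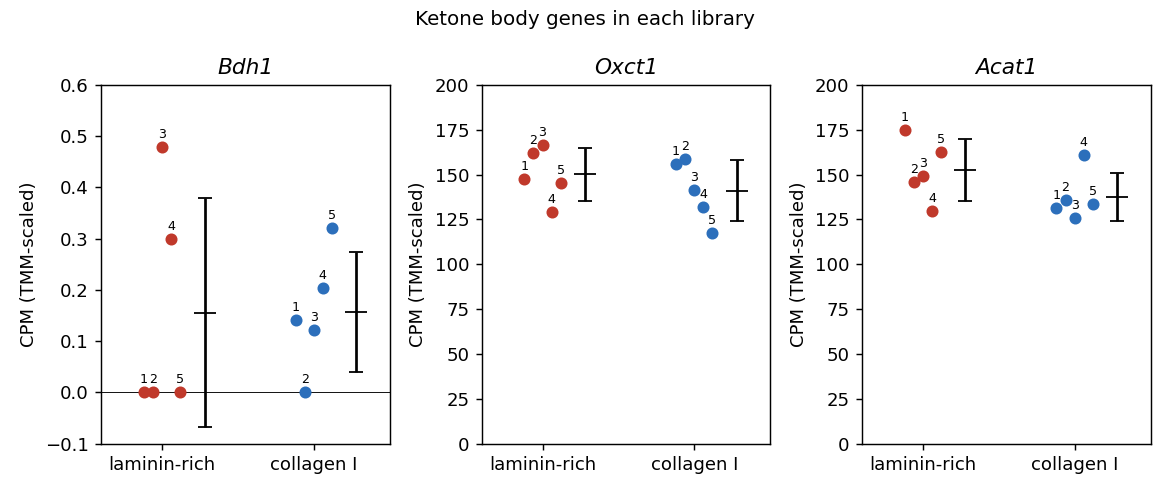
CPM of Bdh1, Oxct1 and Acat1 (vertical axes, TMM-scaled) in 5 laminin-rich and 5 collagen I libraries; each point is a library with its replicate number, and the bar to its right is the mean ± SD. Oxct1 and Acat1 sit between 117 and 175 CPM with overlapping groups, while Bdh1 does not pass 0.480 CPM in any library.

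Of the members, 2 were tested, Oxct1 and Acat1, and 0 were among the 16 genes called at an adjusted p under 0.05 in edgeR, which are 0.148% of genes tested (15 higher in laminin, 0.139%, and 1 lower, 0.00927%). Neither had group ranges that did not overlap (3.23% of genes tested). Since the members were chosen with this comparison known, nothing is read from these counts. Set against genes of all levels, Oxct1 and Acat1 also varied little within a matrix. The pooled SD of log2 CPM within groups was 0.16 for Oxct1, above that of 20.4% of genes tested, and 0.15 for Acat1, above that of 16.5%. These ranks were not matched for level, and counting error weighs more on genes with few counts.

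The balance of Oxct1 to Acat1 differed more between libraries of the same matrix than between the matrices. Per length, Oxct1 over Acat1 was 0.957 ± 0.119 in laminin and 1.00 ± 0.166 in collagen (SD, n = 5 each). The library names carry code letters that the labels do not explain, and the ratio ran from 0.816 to 1.08 in the 3 laminin libraries of letter E and from 0.863 to 0.961 in the 2 of letter F. In collagen it ran from 1.09 to 1.15 in the 3 libraries of letter B and from 0.793 to 0.848 in the 2 of letter D. The collagen libraries thus separated by letter with no overlap, and the laminin libraries did not. How often other pairs of genes separate in this way was not counted, and with 3 and 2 libraries nothing is read from it.

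Within collagen, Oxct1 was at 117 to 132 CPM in letter D and at 141 to 159 CPM in letter B, with no overlap. The share of all genes tested that separate D from B was not counted, so this is not read as a trait of Oxct1. Acat1 was at 134 to 161 CPM in D and at 126 to 136 CPM in B, which overlapped. Without the 2 letter D libraries the laminin minus collagen log2 difference was -0.02 for Oxct1 and 0.22 for Acat1, and without the 3 letter B libraries it was 0.24 and 0.02. Without the 3 laminin libraries of letter E, the difference of Oxct1 was -0.06. No letter is found in both matrices, so a laminin minus collagen difference cannot be told apart from what the letters stand for. Letters B and D are both collagen, and E and F both laminin, so those pairs are compared within a matrix.

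Within collagen, the dependence of expression on transcript length also differed by letter, while in laminin the letters overlapped. The slope of log2 CPM deviations per doubling of transcript length ran from -0.063 to 0.183 in the letter B libraries and from -0.371 to -0.190 in the letter D libraries. In laminin it ran from -0.0117 to 0.163 in letter E and from -0.115 to 0.162 in letter F. The longest transcripts of Oxct1 and Acat1 have 3527 and 3405 nt, at 47.7% and 45.5% GC. With a trend on length and GC content removed, their laminin minus collagen log2 differences were 0.09 and 0.16. Those values compare the matrices and not letters B and D. The part of the length slope in the ratio of Oxct1 to Acat1 was not tested.

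**Figure D2:**
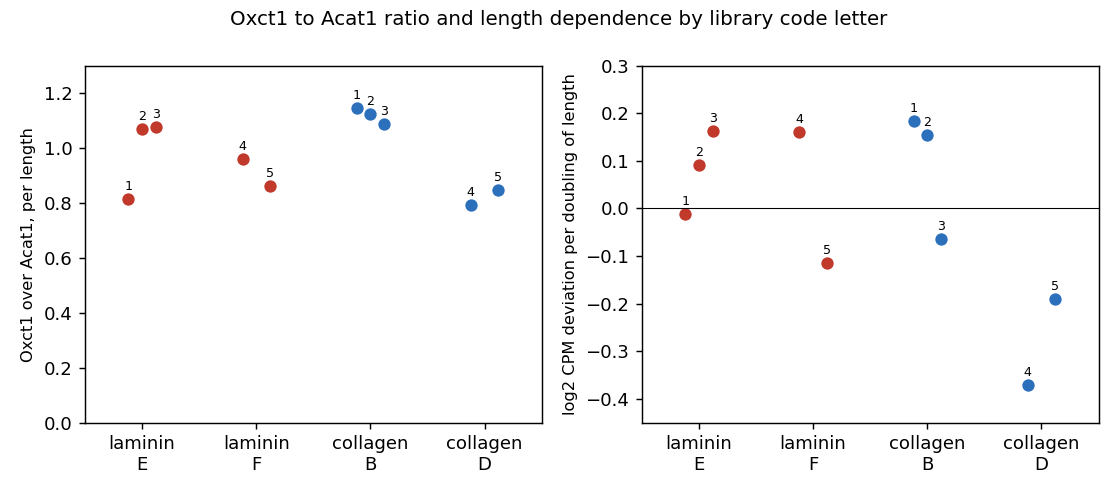
Left, the ratio of Oxct1 to Acat1 in CPM per kb (no unit); right, the slope of log2 CPM deviation per doubling of transcript length. Each point is a library with its replicate number, grouped by matrix and library code letter; in collagen, letter D lies below letter B in both panels (ratio 0.793 to 0.848 against 1.09 to 1.15).

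By the smallest root-mean-square distance between centred log2 CPM profiles over the 10 libraries, the genes most like Oxct1 were Ssr1 (0.062), Clpx (0.064), B4galt6 (0.069), Ddx20 (0.070) and Msantd4 (0.071), where the median distance over 9806 genes was 0.29. The genes most like Acat1 were Uqcrc2 (0.061), Etfa (0.061), Ndufaf5 (0.068), Vdac2 (0.072) and Fam110c (0.081), with a median distance of 0.28. Distances are given as a description, and small distances favour genes that vary as little as these 2.

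Of the other ketone enzymes reported here, Bdh2 and Aacs were high enough to be tested, and neither passed. Bdh2, a cytosolic dehydrogenase related to Bdh1, was low, at 3.78, 3.09, 1.76, 6.59 and 3.92 CPM in laminin replicates 1 to 5, and at 1.84, 1.79, 3.04, 3.87 and 2.57 CPM in collagen replicates 1 to 5. The groups overlapped, and the means were 3.83 ± 1.77 CPM in laminin and 2.62 ± 0.873 CPM in collagen (SD, n = 5 each, log2 difference 0.56, SE 0.34, adjusted p = 0.562 in edgeR). Per length, Bdh2 averaged 1.03 CPM per kb over all libraries and Bdh1 0.0495 CPM per kb.

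Aacs, the cytosolic ligase that turns acetoacetate into acetoacetyl-CoA for lipid synthesis, was at 83.3 ± 29.8 CPM in laminin and 92.9 ± 12.9 CPM in collagen (log2 difference -0.16, SE 0.20, adjusted p = 0.811 in edgeR). The laminin spread came from replicate 1, at 135 CPM, against 61.0 to 80.9 CPM in the others. Oxct2a and Oxct2b, testis forms of Oxct1, had no count in any library. Over all 10 libraries a count of 0 allows up to 0.0484 CPM.

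Among thiolases, the family of Acat1, the cytosolic form Acat2 was at a similar level. Acat2 makes acetoacetyl-CoA for cholesterol synthesis and was at 190, 91.0, 96.9, 86.9 and 112 CPM in laminin replicates 1 to 5, and at 107 to 162 CPM in collagen. Per length, Acat1 over Acat2 was 0.926 ± 0.182 in laminin and 0.729 ± 0.0686 in collagen (SD, n = 5 each), and ran from 0.607 to 1.06 in laminin and from 0.654 to 0.813 in collagen, so the groups overlapped. The log2 difference of Acat2 was -0.12 (SE 0.21, adjusted p = 0.864 in edgeR). Acat3, a close copy beside Acat2 on chromosome 17, averaged 1.15 CPM, and reads that fit both may have been split or dropped. Hadhb, the thiolase subunit of the trifunctional protein of fatty acid oxidation, was at 102 to 123 CPM in laminin and at 75.9 to 94.2 CPM in collagen, with no overlap (log2 difference 0.36, SE 0.10, adjusted p = 0.178 in edgeR). Over the alternatives its adjusted p lay between 0.0227, in DESeq2, and 0.983, without code letter E, which left 2 laminin libraries. Its log2 difference ran from 0.30 to 0.39 over them. The other thiolases named were Scp2 of peroxisomes (-0.06, SE 0.10), Acaa2 of mitochondria (0.21, SE 0.14) and Acaa1b of peroxisomes (0.22, SE 0.33), all log2 differences.

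**Figure D3:**
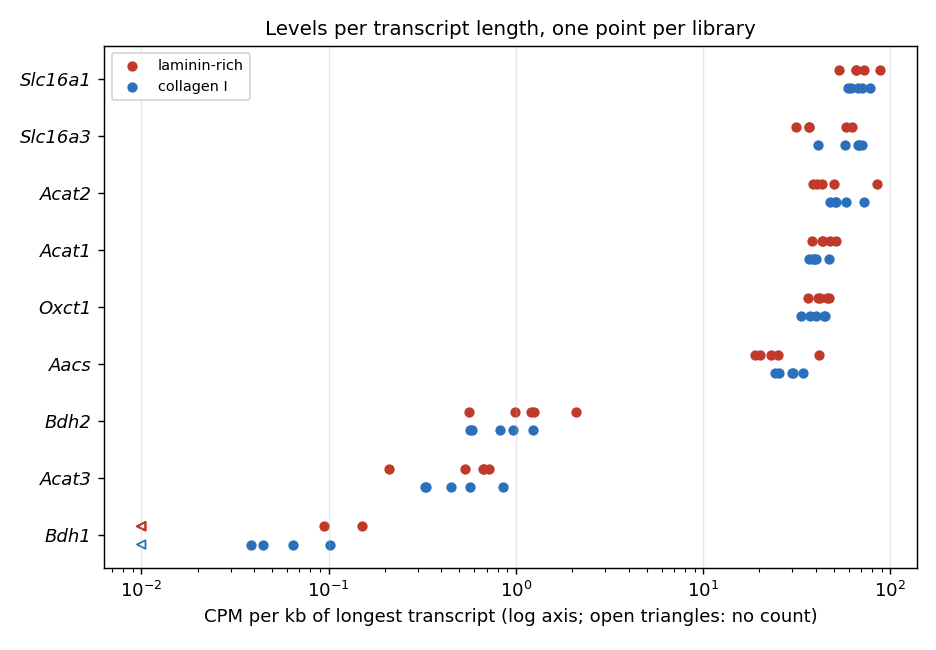
Level in CPM per kb of longest transcript (horizontal log axis) of ketone body transporters, enzymes and thiolase relatives, one point per library, laminin-rich above collagen I for each gene; open triangles at the left edge mark libraries with no count. Oxct1 and Acat1 lie near 40 CPM per kb in both matrices, between Slc16a1 and Aacs, and Bdh1 lies lowest.

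Ketone bodies cross membranes through monocarboxylate transporters. Slc16a1, the widespread form, was at 236 to 388 CPM in laminin and at 264 to 344 CPM in collagen, and averaged 305 ± 55.2 CPM in laminin and 298 ± 32.5 CPM in collagen (log2 difference 0.03, SE 0.13, adjusted p = 0.947 in edgeR). Slc16a3, the form known for lactate export, gave -0.44 (SE 0.21, adjusted p = 0.435 in edgeR), and Bsg, the chaperone that brings both to the cell surface, gave -0.03 (SE 0.17, adjusted p = 0.959). Emb, another such chaperone, averaged 18.2 ± 13.3 CPM in laminin and 14.9 ± 3.20 CPM in collagen, with laminin replicate 4 at 41.5 CPM. Its log2 difference was 0.29 (SE 0.36), and -0.30 without that library. Slc16a6 averaged 4.85 ± 1.71 CPM in laminin and 3.91 ± 1.12 CPM in collagen. Slc16a7, Slc5a8 and Hcar2, the last a receptor for beta-hydroxybutyrate, averaged 0.160 CPM or less, and Slc5a12 and Ffar3 had no count.

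The lists around the 3 genes were written with earlier results of these data known and held 55 tested genes reported here. They covered ketone enzymes, transport, thiolases, control of ketogenesis, leucine and isoleucine breakdown, succinyl-CoA supply, and acetyl-CoA supply and use. These counts leave out list genes whose values are not given, 1 of which passed edgeR's test, so they are no count of the whole pathway. Of the 55, 0 passed edgeR's test over all genes (background 0.148%), 8 had an unadjusted p under 0.05 (14.5%, where the background over all genes was 11.7%), DESeq2 called 4 (background 1.94%) and limma-voom called 0 (background 0.176%). With the length and GC offset 4 passed (background 0.964%), without code letter B 5 (18.9%) and without laminin replicate 1 there was 1 (0.591%). The median log2 difference was 0.09, against 0.009 over all genes tested. Of the 55 genes 37 were above 0 and 18 below, where 51.7% of all genes tested were above 0. The group ranges of 4 genes did not overlap, or 7.27%, against 3.23% of all genes: Hadhb, Ppargc1a, Cpt1a and Ogdh, all higher in laminin, which are also the 4 that DESeq2 called.

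Succinyl-CoA, the donor that Oxct1 uses, comes from the tricarboxylic acid cycle. Ogdh, a subunit of the enzyme that makes it, was at 363, 348, 404, 386 and 323 CPM in laminin replicates 1 to 5, and at 257, 283, 267, 273 and 287 CPM in collagen replicates 1 to 5. The groups did not overlap, and the log2 difference was 0.42 (SE 0.09, adjusted p = 0.0990 in edgeR). Its adjusted p was 3.7e-04 in DESeq2, the lowest of the alternatives, and 0.879 at the highest, while its log2 difference ran from 0.35 to 0.46. None of the others named passed: Dlst, which works in the same complex, gave 0.10 (SE 0.10), the ligase subunits Suclg1 and Sucla2 gave 0.06 (SE 0.12) and 0.09 (SE 0.09), and Mcee, the epimerase of propionate use, gave -0.31 (SE 0.22). The 9 tested genes of this list had a median log2 difference of 0.06, with 7 above 0, and 0 passed in edgeR.

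Among 11 tested genes that control ketogenesis or the entry of fatty acids, 9 were above 0, where 51.7% of all genes tested were. The list was written with earlier results of these data known, so nothing is read from this count. The median log2 difference of the 11 was 0.21 and 0 passed in edgeR. Ppargc1a, a coactivator of mitochondrial gene programmes, was at 27.0, 32.5, 38.7, 51.7 and 19.8 CPM in laminin replicates 1 to 5, and at 18.9, 15.0, 14.0, 6.51 and 9.63 CPM in collagen replicates 1 to 5 (log2 difference 1.40, SE 0.29, adjusted p = 0.0807 in edgeR). Cpt1a, the gate of fatty acids into mitochondria, was at 193 to 315 CPM in laminin and at 157 to 181 CPM in collagen (log2 difference 0.57, SE 0.12, adjusted p = 0.0990 in edgeR). Over the alternatives the adjusted p ran from 9.4e-04 to 0.565 for Ppargc1a and from 0.0041 to 0.561, the last without code letter E, for Cpt1a. The log2 differences ran from 1.10 to 2.04 for Ppargc1a and from 0.45 to 0.65 for Cpt1a. Esrra, a nuclear receptor that works with Ppargc1a, gave 0.56 (SE 0.15, adjusted p = 0.192), Hnf4a 0.45 (SE 0.19, adjusted p = 0.390) and Mtor 0.21 (SE 0.13, adjusted p = 0.568), all in edgeR. The hepatocyte markers Alb and Ttr lay on the same side, at 35.5 ± 16.7 CPM in laminin and 18.8 ± 5.02 CPM in collagen for Alb (log2 difference 0.91, SE 0.30, adjusted p = 0.267 in edgeR), and at 11.8 ± 3.94 CPM in laminin and 6.26 ± 4.48 CPM in collagen for Ttr (0.95, SE 0.40, adjusted p = 0.380). Apoa1 and Fgb, also hepatocyte markers but too low to be tested, lay on the other side, with overlapping groups. Apoa1 averaged 1.24 CPM in laminin and 2.31 CPM in collagen, and Fgb 0.326 CPM in laminin and 0.522 CPM in collagen. Hnf4a is itself a hepatocyte marker, and the part of these markers in the values of Ppargc1a and Cpt1a was not tested.

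Leucine breakdown feeds acetoacetate, and isoleucine breakdown ends at Acat1. The list for both had 15 tested genes with a median log2 difference of 0.08, 9 above 0 and 0 called in edgeR. Its most abundant genes gave -0.07 (SE 0.13) for Bckdk, 0.13 (SE 0.09) for Dld, -0.18 (SE 0.14) for Echs1 and 0.11 (SE 0.15) for Bckdha. Bcat1, the cytosolic transaminase, gave -0.67 (SE 0.49) at under 5 CPM in every library, and -1.53 without laminin replicate 4. Hsd17b10, the step just before Acat1, gave -0.28 (SE 0.19, adjusted p = 0.616 in edgeR). Among 7 tested genes reported here that carry citrate or make or use acetyl-CoA, 4 were above 0 and the median log2 difference was 0.09. Cs, which carries it into the cycle, gave 0.15 (SE 0.10), Acly -0.21 (SE 0.13), Slc25a1, the mitochondrial citrate carrier, -0.11 (SE 0.24), Acacb 0.62 (SE 0.22) and Hmgcs1 of cholesterol synthesis -0.30 (SE 0.29), with adjusted p from 0.309 to 0.900 in edgeR.

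**Figure D4:**
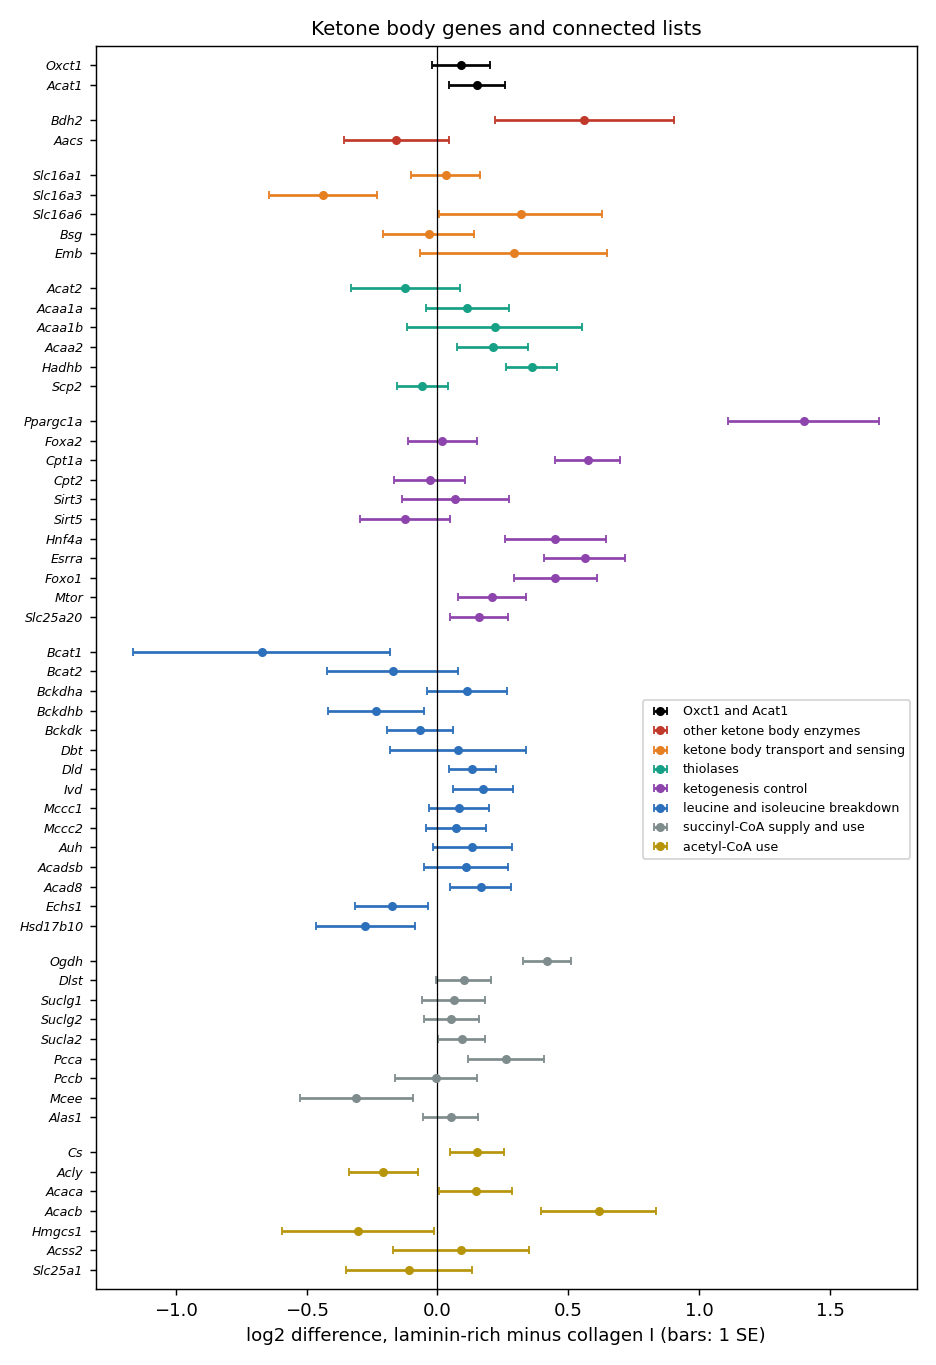
Log2 difference, laminin-rich minus collagen I (horizontal axis, bars 1 SE, n = 5 each), of Oxct1, Acat1 and the 55 tested genes of the connected lists, coloured by list. Oxct1 (0.09) and Acat1 (0.15) lie near 0, and Ppargc1a (1.40) lies farthest to the right.

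The cells were checked against markers, since ketone synthesis is a known function of hepatocytes. All 10 cholangiocyte markers had a mean of 1 CPM or more, though Krt7 was at 3.34 CPM in laminin and 6.80 CPM in collagen, and Cftr at 1.96 CPM in laminin and 0.832 CPM in collagen. Of 10 hepatocyte markers 4 reached that mean, Hnf4a, Alb, Ttr and Apoa1. The 10 markers summed to 136 to 186 CPM in laminin and 88.8 to 137 CPM in collagen. Within that sum, Hnf4a alone averaged 109 CPM in laminin and 80.0 CPM in collagen, and Alb 35.5 CPM in laminin and 18.8 CPM in collagen. Cyp3a11 and Cyp2e1 had no count in any library. Fibroblast and stellate markers summed to 24.4 to 57.4 CPM in laminin and 26.2 to 34.3 CPM in collagen, with members higher in either matrix. Dcn was at 2.30 to 5.25 CPM in laminin and at 6.35 to 9.64 CPM in collagen, with no overlap (log2 difference -1.20, SE 0.23, adjusted p = 0.0697 in edgeR). Pdgfrb, too low to be tested, was at 1.26 to 6.08 CPM in laminin and at 0.424 to 0.802 CPM in collagen, also with no overlap, and Pdgfra gave 1.20 (SE 0.34, adjusted p = 0.203 in edgeR). Leukocyte markers summed to 4.00 to 7.04 CPM in laminin and 4.38 to 8.55 CPM in collagen, and endothelial markers to 0.230 to 1.12 CPM in laminin and 0.321 to 0.973 CPM in collagen. The part of these markers in the values above was not tested, and in bulk RNA fewer cells of a type and less RNA per cell cannot be told apart.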

How the data were processed

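The authors deposited raw read counts by gene symbol for the 10 libraries in 1 table. The submitters' processing notes name GRCm38 (mm10) and DESeq2; no source used here names the aligner, the counter, its strand setting or its annotation. Per the labels' protocols, 30 ng of RNA went into each stranded mRNA library. Of 18407 genes, 3984 had no count. Genes passing filterByExpr (10789) were scaled with TMM and compared with edgeR 4.0.16 in R 4.3.3 (quasi-likelihood F test, matrix as the only term, two-sided, Benjamini-Hochberg adjustment over all genes tested, threshold 0.05). The SE of a log2 difference was taken as |log2 difference|/√F. The series calls the libraries biological replicates but not whether cultures were separate, so the p-values reflect only the spread among these libraries, which may be technical.

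The 3 members and the gene lists were chosen with earlier results of these data known. Each list names its called genes, the 4 with the highest mean CPM and the 2 with the largest difference; other list genes may be named. Profiles were compared among genes with a mean of 5 CPM or more (prior count 2). The values of 3 genes of these lists are not reported here, 1 of which passed edgeR's test, and the list counts are over the others. Lengths, GC content and positions came from GENCODE M21 (GRCm38), promoter windows from RefSeq for 2 of 3 members. Alternatives were DESeq2 1.42.0, limma-voom (limma 3.58.1), other scalings and filters, the replicate number as a block, each library or code letter left out, and a length and GC offset (splines with 5 degrees of freedom). The closest libraries, collagen replicates 1 and 2, differed by 3.32 times the sampling noise (chi-square over its degrees of freedom). That is more than counting noise alone gives, and all 10 were used as separate samples. The value cannot tell separate cultures from separate libraries of 1 culture.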

Additional observations from a re-analysis of the deposited data

Results flagged for a closer look

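In 70 groups of 5 libraries, 1 for each named gene in each matrix, a library stood far from the rest in 4. About 3.5 such groups (5%) arise by chance. None of them was in Oxct1 or Acat1. In laminin replicate 4, Hnf4a stood at 62.0 CPM against 113 CPM in the next library, and Bcat1 at 4.95 CPM against 1.38 CPM. In laminin replicate 1, Hmgcs1 stood at 560 CPM against 229 CPM. In laminin replicate 5, Bckdha stood at 77.2 CPM against 64.1 CPM.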

How the results depend on the processing

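Oxct1 moved by less than the SD between replicates in all 22 alternatives, from -0.065 to 0.241, below 0 in 2 of them; Acat1 did likewise, from 0.0241 to 0.219 and above 0 in each. Bdh1 was at or under the count floor in both groups, so no difference is given for it under the alternatives. The number of genes called over the whole table was 16, and 209 in DESeq2, 29 with no filter, 104 with the length and GC offset, 5 without code letter D, 2083 without B, 5 without F and 1 without E. Leaving out single libraries it ran from 0 to 64, and it was 0 when laminin replicate 2, collagen replicate 3 or collagen replicate 5 was dropped (977, 1167 and 939 genes at an unadjusted p under 0.05). With the replicate block it was 0 (1049 at an unadjusted p under 0.05). The deviations of same-numbered libraries from their group means correlated from -0.327 to 0.483. Differently numbered libraries were not compared, so these values do not settle whether the number pairs them. Of the 55 connected list genes with values given, which leave out 1 that passed, 0 passed in edgeR; there were 4 in DESeq2, 4 with the offset (Cpt1a, Esrra, Ogdh and Ppargc1a), 5 without code letter B (Acacb, Cpt1a, Foxo1, Hsd17b10 and Ppargc1a, of which Hsd17b10 was lower in laminin), and 0 to 1 without single libraries, the 1 being Cpt1a without laminin replicate 1. The cause of these changes was not tested. Depth limits Bdh1, at 0 to 3 counts in each library.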
